A study of Mus musculus with 18 samples.

Results

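The interferon-induced PARP family was followed here through 7 genes, Parp9, Parp14, Dtx3l, Parp10, Parp11, Parp12 and Parp1, which were taken by gene name from the 56748 genes of the deposited count table. All 7 had reads in these cells and all 7 passed the filter on low counts that kept 13691 genes for testing. PARP enzymes transfer ADP-ribose from NAD+ to proteins or nucleic acids, either as single units or as long chains. Parp1 makes the chains at sites of DNA damage and is present in most cells without interferon. Parp9, Parp10, Parp11, Parp12 and Parp14 belong to the branch of the family that responds to interferon in macrophages and other cells and takes part in antiviral defence, and Dtx3l is the E3 ubiquitin ligase that forms a complex with Parp9.

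The libraries came from RAW 264.7 cells, a mouse macrophage-like line, in a study of how TBHQ (tert-butylhydroquinone, a phenolic food antioxidant) altered the response to LPS (lipopolysaccharide, a bacterial stimulus) or PIC (poly(I:C), a double-stranded RNA that stands for a viral stimulus). Poly(A) RNA was sequenced in 6 conditions with 3 biological replicates each, 18 libraries in all. Control cells received medium only. LPS was given for 12 h at 0.1 µg/mL, and PIC for the same time at 20 µg/mL. The TBHQ cells were harvested after 4 h in 5 µM TBHQ, with no stimulus. The LPS + TBHQ and PIC + TBHQ cells had the same 4 h in TBHQ and then the stimulus for 12 h. All values therefore describe 1 cell line, and no group held in TBHQ alone until the later harvest was analysed here. By the study's description only the TBHQ group was taken at 4 h and the others followed the 12 h scheme, so in TBHQ against control the treatment and the time of harvest cannot be told apart. No group with the solvent of TBHQ alone was analysed here.

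Each library held between 14423390 and 18851626 counts. Replicates differed by more than counting error, with a mean chi-square per gene of 2.66 to 5.26 over the 18 pairs within conditions, where counting alone gives 1. Macrophage markers matched the label, since 7 of 8 had a mean of at least 1 FPKM (the deposited measure of level), led by Lyz2 at a mean of 4021 FPKM. Relative to counts scaled by gene length and library total, the deposited FPKM hold a further factor per library, from 0.943 to 0.951 in control and from 1.11 to 1.12 in PIC, so the levels and overlaps given in FPKM hold under that scaling. Mertk was the exception among the markers, at a mean of 0.011 FPKM. No marker of fibroblasts, T cells, B cells, epithelial or endothelial cells reached a mean of 0.2 FPKM. Among the 5 neutrophil markers, Ly6g, S100a9 and Mpo were at 3 counts or fewer in every library, while S100a8, the most abundant, had a mean of 2.89 FPKM. The summed FPKM of this list was 0.903 in control, 3.27 in LPS, 5.59 in PIC, 0.460 in TBHQ, 3.53 in LPS + TBHQ and 3.82 in PIC + TBHQ, and its part in the results was not tested. In these bulk libraries, fewer cells with a transcript and less of that transcript per cell cannot be told apart.

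Across the conditions, the 6 interferon-induced members were higher with LPS or PIC than in control, and each condition with TBHQ was lower than its counterpart without it, while Parp1 fell with either stimulus. All 6 except Parp10 were called higher in PIC than in LPS, beside 14.9% of all genes. With total library size 2 of the 7 members were, beside 985 of all 13691 genes. The summed level of the 6 interferon-induced members was 103 ± 4.30 FPKM in control, 136 ± 3.90 in LPS and 170 ± 1.95 in PIC. It was 78.7 ± 2.16 in TBHQ, 86.0 ± 1.09 in LPS + TBHQ and 124 ± 2.86 in PIC + TBHQ (mean ± SD, n = 3). The ratio of this sum to the FPKM of Parp1 was 2.53, 2.32 and 2.46 in the control libraries, 4.86, 4.45 and 4.51 in LPS, and 6.69, 6.92 and 6.43 in PIC. In cells that had received TBHQ, it was 1.78, 1.68 and 1.81 in TBHQ, 2.70, 2.52 and 2.63 in LPS + TBHQ, and 4.52, 4.12 and 4.24 in PIC + TBHQ. TBHQ libraries were the lowest and PIC libraries the highest. LPS + TBHQ overlapped control, and PIC + TBHQ overlapped LPS. The ratio was not tested.

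**Figure D1:**
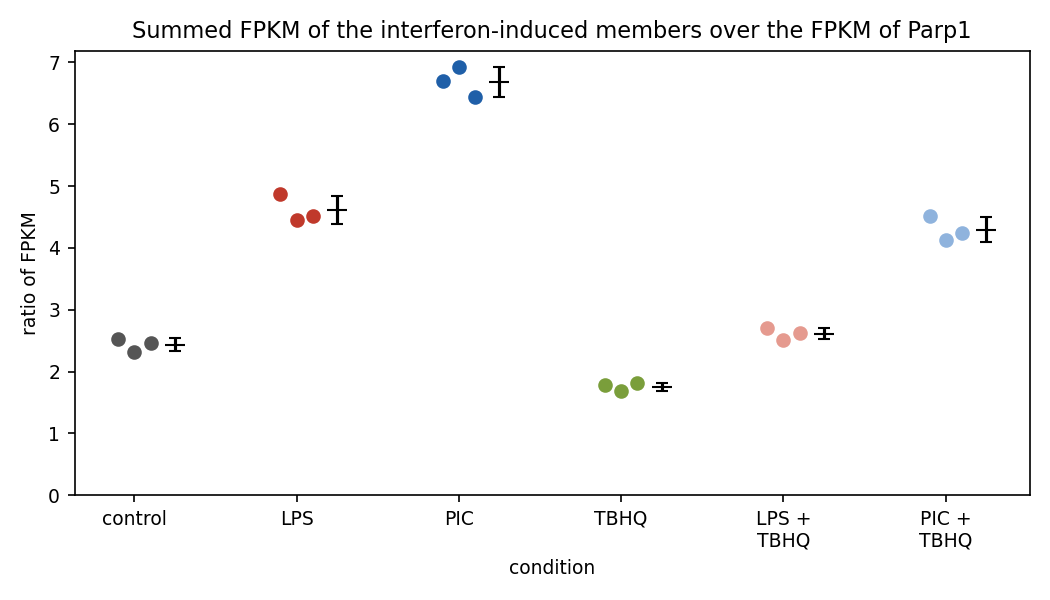
Summed FPKM of Parp9, Parp10, Parp11, Parp12, Parp14 and Dtx3l divided by the FPKM of Parp1 (vertical axis, no unit) in each condition (horizontal axis), with points for single libraries and black marks for the mean ± SD of 3 libraries. Control libraries lay between 2.32 and 2.53, PIC libraries between 6.43 and 6.92 and TBHQ libraries between 1.68 and 1.81.

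In control cells, Parp1 was the most abundant member at a mean of 42.2 FPKM, followed by Parp12 (37.9), Parp9 (19.6), Parp14 (17.1), Parp10 (14.0), Dtx3l (11.03) and Parp11 (3.29), and no neighbours in this order overlapped. In PIC the order became Parp12 (54.0), Parp14 (45.7), Parp9 (29.2), Parp1 (25.4), Parp10 (19.7), Dtx3l (16.2) and Parp11 (4.89), again without overlap. Parp14 thus moved from the fourth to the second place and Parp1 from the first to the fourth. In LPS, Parp12 led at 47.5 FPKM and the ranges of Parp1 (29.5) and Parp14 (27.5) overlapped. Parp1 was again the most abundant member in TBHQ, at 44.9 FPKM. In LPS + TBHQ it overlapped Parp12, at 32.9 and 31.8 FPKM. In PIC + TBHQ, Parp12 led at 41.9 FPKM and Parp1 (29.0) overlapped Parp14 (27.6).

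**Figure D2:**
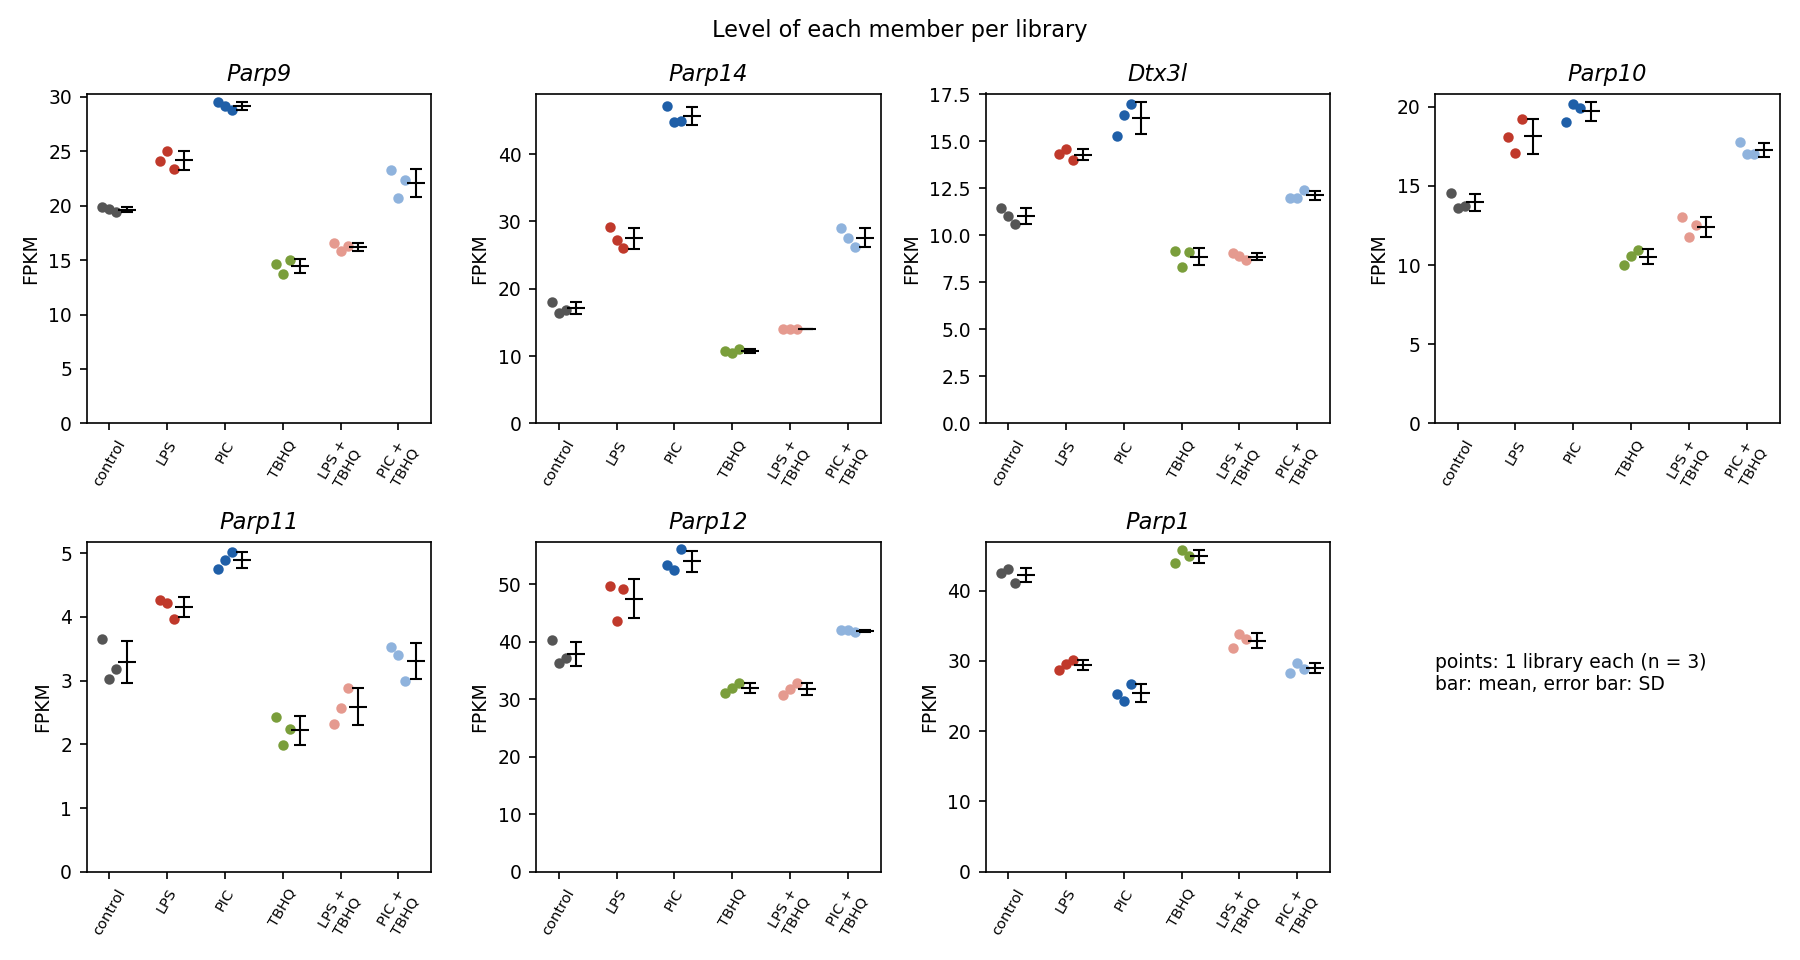
FPKM (vertical axis, starting at 0, a separate scale for each gene) of the 7 members in the 6 conditions (horizontal axis), with coloured points for single libraries and black marks for the mean ± SD of 3 libraries. Parp14 ran from 10.48 to 11.01 FPKM in TBHQ up to 44.8 to 47.2 FPKM in PIC, and Parp1 was highest in TBHQ and lowest in PIC.

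The quasi-likelihood test of edgeR was applied in 1 fit over the 18 libraries, with Benjamini-Hochberg adjustment over the 13691 genes, and a gene was called at an FDR below 0.05. The comparisons share samples, so their counts are not independent of each other. In LPS against control, 6 of the 7 members were called higher and 1 lower, where 24% of all tested genes were called higher and 24.1% lower. In PIC against control the members again split into 6 higher and 1 lower, against 28.6% and 30.1% of all genes. In TBHQ against control, 6 of 7 were called lower, against 14.8% of all genes, and 0 higher, against 14.2%. The libraries of both conditions did not overlap in FPKM for any member in these 3 comparisons. The share of all genes without overlap was not determined. Parp1 in TBHQ against control was without overlap although it was not called (FDR = 0.095).

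Among stimulated cells, 6 of 7 members were lower and 1 higher in LPS + TBHQ than in LPS, where 12.2% of all genes were lower and 11.7% higher. PIC + TBHQ against PIC gave the same split of members, beside 15.5% of all genes lower and 15.8% higher. Parp1 was the member called higher in both. Relative to untreated control cells, all 7 members were lower in LPS + TBHQ (22.5% of all genes), whereas in PIC + TBHQ 5 were higher (26.4% of all genes) and 1 lower (26%). Between the stimuli, 5 of 7 were higher and 1 lower in PIC than in LPS, against 14.9% and 12.8% of all genes. With TBHQ on both sides, 6 were higher and 1 lower in PIC + TBHQ than in LPS + TBHQ, against 11.9% and 8.39%. By the study's own threshold, an FDR below 0.01 with an absolute log2FC above 2, 1.64% of all genes passed in LPS against control and 3.57% in PIC against control, and 0 of 7 members passed in either with edgeR or with DESeq2. All 7 had an unadjusted p below 0.05 in both comparisons with both tools, and their largest log2FC by edgeR was 1.40.

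The scaling of the libraries bears on these directions. With TMM normalization, the median log2FC of all genes lay between -0.015 and 0.0091 in the comparisons. With total library size in its place, the median of all genes moved to -0.23 in PIC against control, -0.15 in PIC + TBHQ against control and -0.14 in PIC against LPS. The share of called genes that were higher moved with it, from 49.8% to 35% in LPS against control and from 48.7% to 26.4% in PIC against control. It went from 48.4% to 36.1% in LPS + TBHQ against control and from 50.4% to 30% in PIC + TBHQ against control. For the effect of TBHQ in stimulated cells the share rose, from 48.9% to 59.5% in LPS + TBHQ against LPS and from 50.6% to 70.3% in PIC + TBHQ against PIC. Between the stimuli it fell from 53.7% to 18.4% in PIC against LPS and from 58.5% to 25.6% in PIC + TBHQ against LPS + TBHQ. Under that scaling the members kept 6 higher and 1 lower in LPS and in PIC against control. Of all 13691 genes, 2454 were then higher and 4558 lower in LPS, and 2379 and 6635 in PIC. In TBHQ against control 6 members were lower, beside 2062 of all genes. In PIC + TBHQ against control only 2 members were higher, beside 2364 of all genes, and 1 lower, beside 5515. Dtx3l, Parp12 and Parp11 turned there to values below 0 that did not pass the test.

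**Figure D3:**
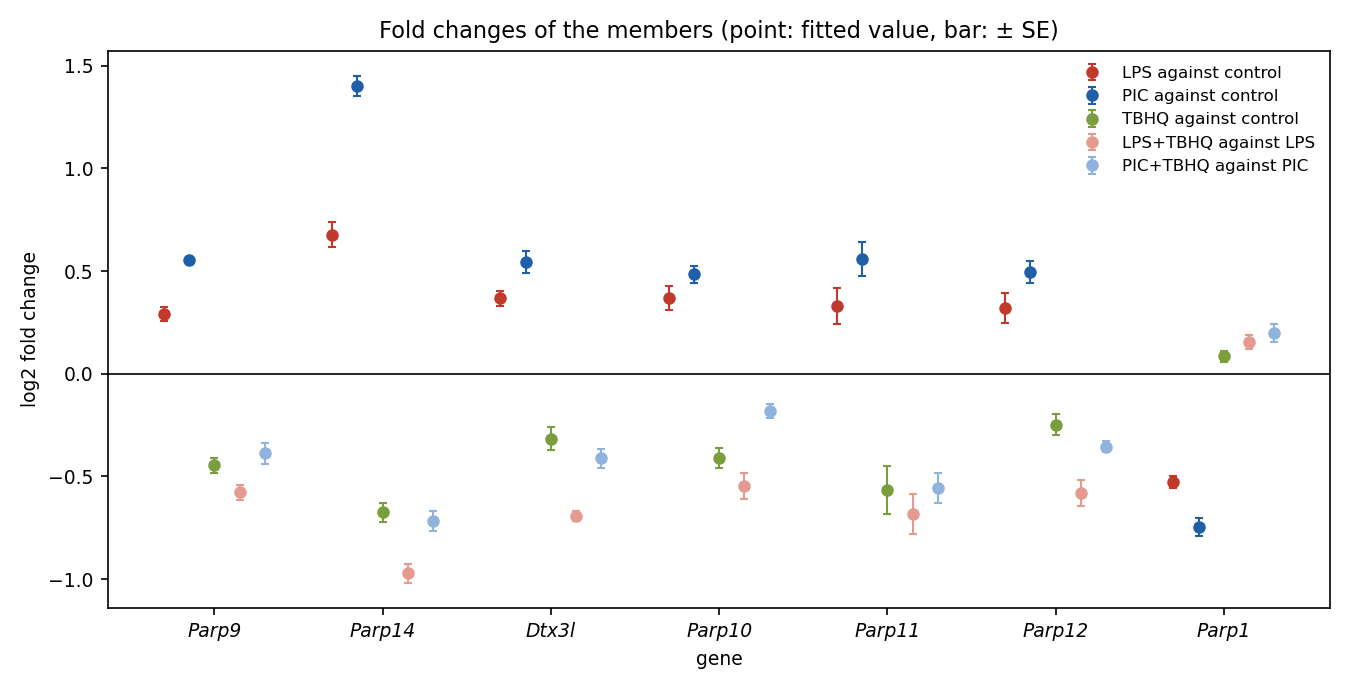
Fitted log2FC (vertical axis) of each member (horizontal axis) in 5 comparisons, with bars of ± SE. The 6 interferon-induced members lie above 0 for LPS and PIC against control and below 0 wherever TBHQ was added, also with total library size as the scaling, and Parp1 lies at -0.53 and -0.75 for LPS and PIC against control.

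Parp14 is a mono-ADP-ribosyltransferase that also carries macrodomains, the modules that bind ADP-ribose, and it had the largest log2FC of the 7 members in LPS and in PIC against control. Its FPKM was 18.1, 16.4 and 16.8 in control, 29.1, 27.3 and 26.1 in LPS, and 47.2, 44.8 and 45.0 in PIC. Every LPS library was above every control library, and every PIC library was above both. The log2FC was 0.68 ± 0.062 (SE, n = 3 per condition) in LPS against control (FDR = 1.1e-15) and 1.40 ± 0.050 in PIC against control (FDR = 2.2e-25). PIC exceeded LPS by a log2FC of 0.72 ± 0.052 (FDR = 3.8e-16), which was the largest difference between the stimuli among the 7 members by edgeR.

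With TBHQ, Parp14 was at 10.69, 10.48 and 11.01 FPKM in TBHQ, 14.0, 14.1 and 14.0 in LPS + TBHQ, and 29.0, 27.5 and 26.2 in PIC + TBHQ. All TBHQ and LPS + TBHQ libraries were below the lowest control library, while the PIC + TBHQ libraries spanned the same range as LPS without TBHQ. In TBHQ against control the log2FC was -0.67 ± 0.047 (FDR = 3.0e-14). LPS + TBHQ was lower than LPS by a log2FC of -0.97 ± 0.045 (FDR = 2.6e-19), and PIC + TBHQ lower than PIC by -0.72 ± 0.049 (FDR = 4.1e-16). Relative to control, Parp14 was lower in LPS + TBHQ (log2FC -0.29, FDR = 1.0e-06) and higher in PIC + TBHQ (log2FC 0.68, FDR = 6.2e-16). In order, PIC was followed by PIC + TBHQ and LPS, which overlapped, then control, LPS + TBHQ and TBHQ, each apart from the next.

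Parp9 has macrodomains and acts together with Dtx3l. In control its FPKM was 19.9, 19.7 and 19.4, in LPS 24.12, 25.04 and 23.35, and in PIC 29.5, 29.2 and 28.8. TBHQ libraries were at 14.62, 13.75 and 14.98, LPS + TBHQ at 16.5, 15.8 and 16.3, and PIC + TBHQ at 23.3, 20.7 and 22.4. No neighbouring conditions overlapped, and the order from the top was PIC, LPS, PIC + TBHQ, control, LPS + TBHQ and TBHQ. Parp9 had a log2FC of 0.29 ± 0.032 in LPS against control (FDR = 1.3e-06) and 0.55 ± 0.016 in PIC against control (FDR = 3.4e-13). It was lower in TBHQ than in control, with a log2FC of -0.45 ± 0.037 (FDR = 1.7e-09). The values were -0.58 ± 0.035 in LPS + TBHQ against LPS (FDR = 1.7e-12) and -0.39 ± 0.052 in PIC + TBHQ against PIC (FDR = 9.4e-09). In PIC + TBHQ against control it was 0.17 ± 0.052 (FDR = 0.0023), and 0.02 with total library size (FDR = 0.777).

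Dtx3l, the ligase partner, was at 11.45, 11.02 and 10.62 FPKM in control, 14.3, 14.6 and 14.0 in LPS, and 15.3, 16.4 and 17.0 in PIC. It was at 9.17, 8.32 and 9.11 FPKM in TBHQ, 9.03, 8.88 and 8.67 in LPS + TBHQ, and 12.0, 12.0 and 12.4 in PIC + TBHQ. TBHQ and LPS + TBHQ overlapped each other and lay below all control libraries, and the remaining conditions were apart. The log2FC against control was 0.37 ± 0.037 in LPS (FDR = 9.7e-08), 0.54 ± 0.054 in PIC (FDR = 6.1e-12) and -0.32 ± 0.055 in TBHQ (FDR = 8.4e-06). Adding TBHQ gave -0.69 ± 0.025 under LPS (FDR = 1.9e-13) and -0.41 ± 0.047 under PIC (FDR = 2.0e-08). In PIC + TBHQ against control, Dtx3l was higher by a log2FC of 0.13 ± 0.036 (FDR = 0.026). That call was lost without control replicate 2 (0.13, FDR = 0.0552), control replicate 3 (0.10, FDR = 0.132) or PIC + TBHQ replicate 3 (0.11, FDR = 0.101) and with no filter (0.13, FDR = 0.0691), and the value was -0.02 with total library size (FDR = 0.798). Over its alternatives the FDR ran from 0.014 to 0.798.

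Parp14, Dtx3l and Parp9 are neighbours on chromosome 16. In the coordinates of the deposited table, Parp14 lay on the minus strand at chr16:35653244-35691914, Dtx3l on the minus strand at chr16:35746881-35759521 and Parp9 on the plus strand at chr16:35758840-35792975. Dtx3l and Parp9 began head to head and overlapped by 682 bases on opposite strands. The submitters' notes name both GRCm38 and mm39 as builds, and these positions differ from those of GRCm38. Of all 50-base stretches in its transcripts, Parp9 shared 7.71% with other genes, most with Dtx3l, and Dtx3l shared 8.09%, most with Parp9, read on either strand. The study's methods describe strand-specific libraries, the labels name directional and non-directional ones, and the strand setting of the counting is not given in the sources used here. How reads from the overlap were assigned is therefore not known.

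**Figure D4:**
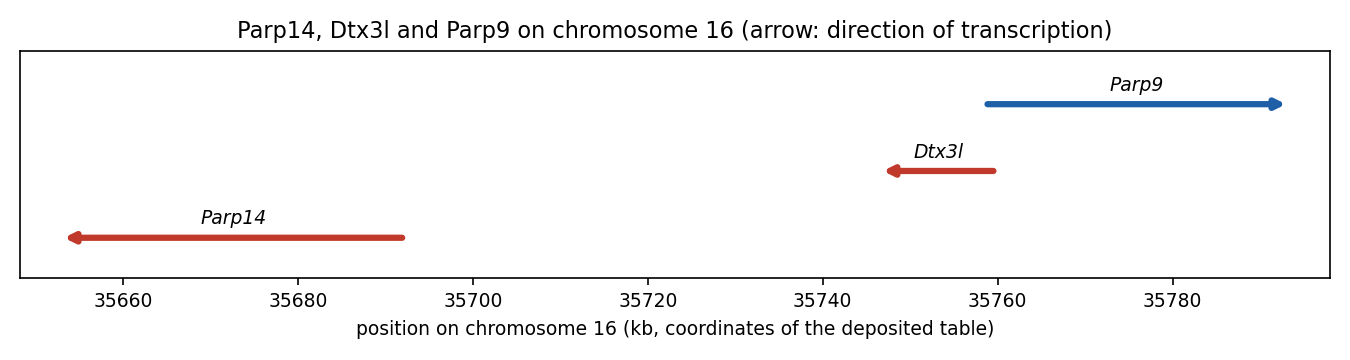
Positions of Parp14, Dtx3l and Parp9 on chromosome 16 in kilobases (horizontal axis), drawn to scale from the start and end in the deposited table, with arrows pointing in the direction of transcription. The starts of Dtx3l and Parp9 overlap by 682 bases, and the vertical position only separates the genes.

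Parp10, Parp11 and Parp12 transfer single ADP-ribose units. Parp12, which has zinc finger domains, was the most abundant interferon-induced member in every condition. It was at 40.2, 36.2 and 37.2 FPKM in control, 49.7, 43.6 and 49.2 in LPS, 53.4, 52.5 and 56.1 in PIC, 31.1, 31.9 and 32.9 in TBHQ, 30.8, 31.9 and 32.8 in LPS + TBHQ, and 42.0, 42.0 and 41.7 in PIC + TBHQ. TBHQ and LPS + TBHQ overlapped at the bottom of this order, and the other conditions were apart. Parp12 was higher in LPS (log2FC 0.32 ± 0.074, FDR = 2.3e-07) and in PIC (0.50 ± 0.053, FDR = 6.3e-12) and lower in TBHQ (-0.25 ± 0.050, FDR = 5.9e-05) than in control. It was lower in LPS + TBHQ than in LPS (-0.58 ± 0.064, FDR = 1.2e-12) and in PIC + TBHQ than in PIC (-0.36 ± 0.028, FDR = 6.3e-08). The difference of PIC + TBHQ from control, 0.14 ± 0.046 (FDR = 0.0090), was not called without control replicate 2 (0.11, FDR = 0.0731) or with total library size (-0.0084, FDR = 0.887). Its FDR ran from 0.0018 to 0.887 over the alternatives.

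Parp10 was at 14.6, 13.6 and 13.7 FPKM in control, 18.1, 17.1 and 19.3 in LPS, 19.1, 20.2 and 19.9 in PIC, 10.02, 10.60 and 10.97 in TBHQ, 13.0, 11.8 and 12.5 in LPS + TBHQ, and 17.8, 17.0 and 17.0 in PIC + TBHQ. PIC overlapped LPS, and LPS overlapped PIC + TBHQ, so that these 3 conditions formed a run above control, LPS + TBHQ and TBHQ. Against control the log2FC was 0.37 ± 0.059 in LPS (FDR = 2.2e-07), 0.48 ± 0.040 in PIC (FDR = 3.9e-10) and -0.41 ± 0.049 in TBHQ (FDR = 2.7e-07). TBHQ lowered it under LPS (-0.55 ± 0.065, FDR = 2.2e-10) and under PIC (-0.18 ± 0.033, FDR = 0.0059), the latter not called with total library size (-0.11, FDR = 0.0831). PIC did not differ from LPS by the test (0.11 ± 0.055, FDR = 0.10), except without LPS replicate 3 (0.16, FDR = 0.0307), and the value was -0.02 with total library size (FDR = 0.82). LPS + TBHQ was below control by -0.18 ± 0.053 (FDR = 0.0069), a call lost without LPS + TBHQ replicate 2 (-0.14, FDR = 0.0623).

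In the deposited coordinates, Parp10 overlapped Plec, a cytoskeletal linker gene, by 1401 bases on the same strand of chromosome 15. Of its 50-base stretches, 3.59% were shared with other genes, most with Plec. Plec had 11084 to 19119 counts per library, where Parp10 had 730 to 1443. The level of Plec was 40.6 ± 2.59 FPKM in control, 46.6 ± 2.4 in LPS, 53.2 ± 0.592 in PIC, 60.2 ± 1.60 in TBHQ, 54.6 ± 2.49 in LPS + TBHQ and 63.4 ± 2.05 in PIC + TBHQ. Plec thus stood higher in each condition with TBHQ than in its counterpart without it, where Parp10 stood lower. How reads in the overlap were assigned is not given in the sources used here.

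Parp11, which is linked to the nuclear envelope, was the least abundant member, with 228 to 597 counts per library. It was at 3.65, 3.02 and 3.18 FPKM in control, 4.27, 4.22 and 3.97 in LPS, 4.75, 4.90 and 5.02 in PIC, 2.43, 1.98 and 2.24 in TBHQ, 2.31, 2.56 and 2.89 in LPS + TBHQ, and 3.53, 3.40 and 2.99 in PIC + TBHQ. PIC + TBHQ overlapped control and LPS + TBHQ overlapped TBHQ, while PIC and LPS stood apart at the top. Against control the log2FC was 0.33 ± 0.088 in LPS (FDR = 0.0016), 0.56 ± 0.084 in PIC (FDR = 6.0e-07) and -0.57 ± 0.12 in TBHQ (FDR = 8.5e-06). TBHQ gave -0.68 ± 0.098 under LPS (FDR = 1.7e-07) and -0.56 ± 0.074 under PIC (FDR = 2.9e-06). No difference of PIC + TBHQ from control was detected at this depth (0.0025 ± 0.11, FDR = 0.98), and the value was -0.15 with total library size (FDR = 0.158). PIC exceeded LPS by 0.23 ± 0.038 (FDR = 0.040), which was not called with DESeq2 (FDR = 0.0575), with limma on log2(FPKM + 1) (FDR = 0.0567) or log2(FPKM + 0.1) (FDR = 0.077), or with total library size (0.10, FDR = 0.377). The same call was lost without LPS replicate 1 (0.25, FDR = 0.0591), LPS replicate 2 (0.24, FDR = 0.059), LPS replicate 3 (0.20, FDR = 0.133), PIC replicate 2 (0.23, FDR = 0.0781) or PIC replicate 3 (0.21, FDR = 0.106). Its FDR ran from 0.0215 to 0.377.

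Parp1, the constitutive member, was lower in LPS and in PIC than in control, where the other 6 were higher. Its FPKM was 42.5, 43.1 and 41.1 in control, 28.7, 29.6 and 30.1 in LPS, 25.3, 24.3 and 26.7 in PIC, 43.9, 45.8 and 44.9 in TBHQ, 31.8, 33.8 and 33.1 in LPS + TBHQ, and 28.2, 29.8 and 28.9 in PIC + TBHQ. All stimulated libraries, with or without TBHQ, were below all unstimulated libraries. LPS overlapped PIC + TBHQ, and the other neighbours in the order were apart. The mean FPKM was 0.698 times the control level in LPS and 0.602 times in PIC, with a log2FC of -0.53 ± 0.030 (FDR = 9.5e-14) and -0.75 ± 0.045 (FDR = 3.6e-18). In TBHQ against control it was 0.09 ± 0.028, which was not called (FDR = 0.095), although its 3 libraries were above the control libraries. Parp1 was higher in LPS + TBHQ than in LPS (0.16 ± 0.034, FDR = 0.0031) and in PIC + TBHQ than in PIC (0.20 ± 0.044, FDR = 2.3e-04), and it remained below control in both, by a log2FC of -0.37 (FDR = 6.3e-10) and -0.55 (FDR = 2.1e-14).

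Whether TBHQ had a different effect under PIC than under LPS was tested as the difference of both log2FC in the same fit. Of the 7 members, 3 were called, all with a weaker reduction under PIC, where 0.825% of all genes were called in that direction. Among called genes the share in that direction was 45%, and it was 29.1% with DESeq2 and 76.1% with total library size. The difference was 0.37 ± 0.073 for Parp10 (FDR = 0.0027), 0.28 ± 0.053 for Dtx3l (FDR = 0.027) and 0.25 ± 0.067 for Parp14 (FDR = 0.017). For Parp10 the FDR lay between 0.0006 and 0.0252 over the other fits, and its difference did not reach the study's threshold on log2FC. The FDR of Dtx3l ran from 0.0072 to 0.118, and its call was lost without LPS replicate 1 (0.28), LPS replicate 2 (0.25), PIC replicate 1 (0.22), LPS + TBHQ replicate 2 (0.28), LPS + TBHQ replicate 3 (0.27) or PIC + TBHQ replicate 3 (0.26). It was also lost with no filter (FDR = 0.0549) and with limma on log2(FPKM + 1) (FDR = 0.0595) or log2(FPKM + 0.1) (FDR = 0.053). Parp14 had an FDR between 0.003 and 0.111, the highest with limma on log2(FPKM + 1), and was not called without LPS replicate 1 (0.21), PIC replicate 2 (0.23), PIC replicate 3 (0.23) or PIC + TBHQ replicate 1 (0.21). The call of Parp14 was also lost with limma on log2(FPKM + 0.1) (0.24, FDR = 0.0955). Parp12 (0.22 ± 0.070, FDR = 0.059), Parp9 (0.19 ± 0.063, FDR = 0.13), Parp11 (0.13 ± 0.12, FDR = 0.71) and Parp1 (0.04 ± 0.056, FDR = 0.82) were not called. With total library size Parp12 (0.27, FDR = 0.0119) and Parp9 (0.23, FDR = 0.0393) were called. Parp12 also passed with DESeq2 (0.21, FDR = 0.0444), with the replicate block (0.22, FDR = 0.0417) and without LPS replicate 2 (0.27, FDR = 0.0096). Parp1 was at -0.0064 without PIC replicate 2 (FDR = 0.979).

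A pair of comparisons of stimulated cells against TBHQ alone was added after the values had been seen. Their harvests were 12 h apart, so stimulus and time cannot be told apart. In PIC + TBHQ against TBHQ, 6 of 7 members were higher and 1 lower, beside 27.9% and 26.7% of all genes. The largest was Parp14 with a log2FC of 1.36 ± 0.047 (FDR = 3.1e-24), followed by Parp10 (0.71 ± 0.043, FDR = 6.9e-14). In LPS + TBHQ against TBHQ, 3 were higher and 1 lower, beside 23.1% and 23.6%. The 3 were Parp14 (0.38 ± 0.019, FDR = 8.9e-09), Parp10 (0.23 ± 0.056, FDR = 5.5e-04) and Parp9 (0.16 ± 0.040, FDR = 0.0048), the last not called with total library size (0.10, FDR = 0.0747). Parp12 (-0.01 ± 0.034, FDR = 0.84), Dtx3l (-0.0084 ± 0.047, FDR = 0.91) and Parp11 (0.22 ± 0.12, FDR = 0.057) were not called, and the values of Parp12 and Dtx3l lay above 0 in some alternatives. The value of Parp11 passed without TBHQ replicate 1 (0.29, FDR = 0.0244) or LPS + TBHQ replicate 1 (0.29, FDR = 0.0184), with no filter (0.23, FDR = 0.0492) and with a mean of at least 50 counts (0.23, FDR = 0.0412). Parp1 was lower in both, at -0.45 ± 0.032 and -0.64 ± 0.027.

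The other PARP genes were taken as a list of 10, of which 9 were tested and Parp8 had too few counts. In LPS against control 6 were higher and 1 lower, beside 24% and 24.1% of all genes, with a median log2FC of 0.36 beside -0.0040 for all genes. In PIC 7 were higher and 1 lower, beside 28.6% and 30.1%, with a median of 0.36 beside -0.015. With total library size 5 were higher in PIC (2379 of all 13691 genes), and Parp4 and Tnks2 turned to values below 0. Tiparp, a mono-ADP-ribosyltransferase controlled by the aryl hydrocarbon receptor, was at 15.6 ± 0.369 FPKM in control, 24.7 ± 0.923 in LPS, 42.9 ± 1.85 in PIC, 13.0 ± 0.626 in TBHQ, 17.4 ± 0.317 in LPS + TBHQ and 24.3 ± 0.589 in PIC + TBHQ. Its log2FC was 0.66 ± 0.039 in LPS against control (FDR = 2.1e-14) and 1.44 ± 0.041 in PIC against control (FDR = 4.5e-25), close to the 1.40 of Parp14. Zc3hav1, the antiviral zinc finger protein ZAP, stood at 37.5 ± 0.932 FPKM in control, 53.7 ± 2.02 in LPS and 75.9 ± 1.09 in PIC, and at 34.2 ± 0.525, 47.6 ± 1.20 and 62.0 ± 1.23 in TBHQ, LPS + TBHQ and PIC + TBHQ. In LPS + TBHQ against control, where the 6 interferon-induced members were lower, 6 of these 9 genes were higher and 1 lower, beside 21.2% and 22.5% of all genes, and 4 were higher and 2 lower with total library size (2281 and 4034 of all 13691). Zc3hav1 was among the higher ones (0.33 ± 0.030, FDR = 3.7e-10).

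TBHQ against control gave 1 higher and 4 lower of these 9 PARP genes, beside 14.2% and 14.8% of all genes, with a median of -0.0096. In LPS + TBHQ against LPS and in PIC + TBHQ against PIC, 0 were higher and 4 lower, with a median of -0.12 in both, beside 11.7% higher and 12.2% lower of all genes under LPS and 15.8% and 15.5% under PIC. The reduction of Tiparp was -0.51 ± 0.036 under LPS (FDR = 4.5e-11) and -0.81 ± 0.042 under PIC (FDR = 4.7e-17), a difference of -0.30 ± 0.055 (FDR = 0.0049) in the opposite direction to those of Parp10, Dtx3l and Parp14. Parp3 was the other gene called for this difference, at 0.33 ± 0.052 (FDR = 0.028), in the same direction as those members. Parp3, which acts at DNA breaks, was higher in LPS (0.90 ± 0.042, FDR = 1.3e-14) and PIC (0.98 ± 0.047, FDR = 5.8e-16) and lower in TBHQ (-0.46 ± 0.068, FDR = 2.5e-06) than in control. Parp16, a resident of the endoplasmic reticulum, was higher in all 5 treated conditions, from 0.50 ± 0.13 in TBHQ (FDR = 0.017) to 1.11 ± 0.20 in PIC + TBHQ (FDR = 1.4e-07). Among the 4 other deltex ligases related to Dtx3l, Dtx4 and Dtx2 were called higher and 0 lower in LPS and in PIC, where 24% and 28.6% of all genes were higher. Dtx4 was also higher in TBHQ than in control (0.58 ± 0.037, FDR = 8.2e-14), while Dtx3 was lower there (-0.44 ± 0.030, FDR = 1.1e-06), as Dtx3l was.

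Of 7 enzymes that remove ADP-ribose, 0 were higher and 3 lower in LPS against control, beside 24% and 24.1% of all genes, with a median log2FC of -0.16. In PIC 0 were higher and 4 lower, beside 28.6% and 30.1% of all genes, with a median of -0.43. Parg, the main poly(ADP-ribose) hydrolase, was between 6.82 and 8.02 FPKM in all 18 libraries and was not called in any comparison. Its log2FC was 0.03 ± 0.057 in LPS against control (FDR = 0.74) and 0.05 ± 0.073 in PIC against control (FDR = 0.52). Adprs, which removes ADP-ribose from serine, was lower in LPS (-0.40 ± 0.071, FDR = 1.4e-05) and in PIC (-0.69 ± 0.049, FDR = 2.2e-10). Oard1, which acts on acidic residues, was lower in PIC (-0.43 ± 0.11, FDR = 0.0017). In LPS + TBHQ against LPS 1 was lower (12.2% of all genes), and in PIC + TBHQ against PIC 0 were called by edgeR in either direction, where 15.8% of all genes were higher and 15.5% lower.

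NAD+ is the source of the ADP-ribose that is transferred. Of 16 genes of NAD supply and use, 12 were tested, and 7 were higher and 1 lower in LPS against control, beside 24% and 24.1% of all genes, with a median of 0.24. In PIC 7 were higher and 2 lower, beside 28.6% and 30.1%, with a median of 0.46. Nampt, the rate-limiting enzyme of the NAD salvage route, was at 53.5 ± 0.700 FPKM in control, 58.3 ± 1.83 in LPS, 77.0 ± 1.38 in PIC, 42.2 ± 1.34 in TBHQ, 48.8 ± 0.761 in LPS + TBHQ and 58.5 ± 1.85 in PIC + TBHQ. Its conditions ranked as they did for Parp14, with PIC highest, TBHQ lowest and PIC + TBHQ overlapping LPS. The log2FC was 0.51 ± 0.019 in PIC against control (FDR = 7.0e-15), -0.34 ± 0.030 in TBHQ against control (FDR = 1.9e-09), -0.26 ± 0.030 in LPS + TBHQ against LPS (FDR = 5.9e-07) and -0.39 ± 0.032 in PIC + TBHQ against PIC (FDR = 6.2e-11). In PIC + TBHQ against control it was 0.12 ± 0.029 (FDR = 0.0037), and below 0 with total library size.

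Partners of Parp1 in DNA repair were a list of 10, all tested. In LPS against control 2 were higher and 3 lower, beside 24% and 24.1% of all genes, with a median of -0.04. In PIC 3 were higher and 5 lower, beside 28.6% and 30.1%, with a median of -0.19. With total library size 0 were higher and 7 lower in PIC, where 2379 of all 13691 genes were higher and 6635 lower. Xrcc1, the scaffold that binds poly(ADP-ribose) at single-strand breaks, was lower in LPS (-0.43 ± 0.035, FDR = 2.7e-07) and in PIC (-0.64 ± 0.064, FDR = 4.1e-11). Xrcc6 (-0.75 ± 0.033, FDR = 2.5e-11) and Xrcc5 (-0.48 ± 0.10, FDR = 1.2e-06), the subunits of the Ku complex, were also lower in PIC. In LPS + TBHQ against LPS 2 of the 10 were higher and 1 lower, beside 11.7% and 12.2% of all genes, with Polb at -0.35 ± 0.13 (FDR = 0.0072) and Xrcc1 at 0.24 ± 0.049 (FDR = 0.0029). Under PIC, 2 were higher and 0 lower with TBHQ, beside 15.8% and 15.5%. Hpf1, the cofactor that directs Parp1 to serine, was higher in LPS than in control (0.19 ± 0.035, FDR = 4.8e-04).

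Type I interferon acts through its receptor, made of Ifnar1 and Ifnar2, and through factors that include Stat2 and Irf9. Of 13 genes of this signalling, 12 were tested. In LPS against control 7 were higher and 0 lower, beside 24% and 24.1% of all genes. In PIC 9 were higher and 1 lower, beside 28.6% and 30.1%. In TBHQ against control 0 were higher, 4 lower and 8 neither, beside 14.2% higher and 14.8% lower of all genes. Ifnb1 itself had 0 to 12 counts per library and was not tested, with 12, 4 and 6 counts in PIC and 0, 1 and 2 in LPS. Ifnar2 was not called in LPS or PIC against control, nor when TBHQ was added to either. Ifnar1 was at 0.18 ± 0.032 in PIC against control (FDR = 0.0021), a value that was below 0 with total library size. Stat2 was at 13.7 ± 0.641 FPKM in control, 20.6 ± 1.38 in LPS, 25.3 ± 0.471 in PIC, 8.37 ± 0.255 in TBHQ, 11.8 ± 0.458 in LPS + TBHQ and 17.5 ± 1.19 in PIC + TBHQ, and each condition ranked as it did for Parp9. Irf9 was higher in LPS (0.39 ± 0.027, FDR = 2.7e-08) and PIC (0.49 ± 0.043, FDR = 5.7e-11), but in TBHQ against control it was 0.0068 ± 0.026 (FDR = 0.94), unlike the values of the 6 interferon-induced members. Irf7, a factor that amplifies interferon production, rose more than any member with LPS (log2FC 1.51 ± 0.054, FDR = 2.0e-27) and PIC (1.73 ± 0.043, FDR = 1.3e-29), from 60.2 ± 2.82 FPKM in control to 173 ± 7.73 in LPS and 202 ± 3.89 in PIC, and down to 66.6 ± 1.44 in LPS + TBHQ and 119 ± 4.55 in PIC + TBHQ.

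A list of 30 interferon-stimulated genes outside the family was set beside the members. In LPS against control 29 were higher and 0 lower, beside 24% and 24.1% of all genes, with a median log2FC of 0.71. In PIC 30 were higher, beside 28.6% of all genes, with a median of 1.31, where the 6 interferon-induced members had medians of 0.35 and 0.55. In TBHQ against control 1 was higher and 28 lower, beside 14.2% and 14.8% of all genes (median -0.55, members -0.43). All 30 were lower in LPS + TBHQ than in LPS (12.2% of all genes) and in PIC + TBHQ than in PIC (15.5%), with medians of -0.925 and -0.73, beside -0.63 and -0.40 for the members. Against control, 6 were higher and 18 lower in LPS + TBHQ, beside 21.2% and 22.5% of all genes (median -0.23, members -0.29). In PIC + TBHQ 24 were higher and 1 lower, beside 26.4% and 26% (median 0.54, and 0.39 with total library size). The effect of TBHQ was weaker under PIC than under LPS for 16 of the 30 and stronger for 0, where 0.825% and 1.01% of all genes were called higher and lower for this difference. Within each stimulus against control, the largest log2FC of the list was that of Gbp2 in LPS (3.14 ± 0.059, FDR = 2.8e-21) and of Rsad2 in PIC (3.85 ± 0.12, FDR = 2.2e-34).

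Likeness of pattern was described by Pearson's r over the 18 libraries, which share conditions. Among the 15 pairs of interferon-induced members, r of log2 CPM ran from 0.909 to 0.978, and with Parp1 it ran from -0.872 to -0.732. Of 10444 other genes with a mean of at least 50 counts, those closest to the mean pattern of the 6 members were Oasl2 (0.993), Usp18 (0.99), Irgm1 (0.987), Ube2l6 (0.987), Rtp4 (0.987), Slfn5 (0.986), Apol9a (0.986), Samd9l (0.984), Rnf213 (0.983) and Ddx60 (0.983). Rtp4 lies on chromosome 16, as do Parp9, Parp14 and Dtx3l, and Usp18 and Samd9l lie on chromosome 6, as do Parp11 and Parp12. The genes closest to Parp1 were Arhgap11a (0.993), Cdca3 (0.991), Pithd1 (0.991), Anln (0.99) and Aurka (0.989). Anln and Aurka are known for their roles in cell division.

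Since the 6 members moved together, the sequence around their starts was searched for 4 motifs on both strands. RefSeq windows of 250 bases before to 50 after the start (build GRCm38.p6) were matched for 4 of the 7 members, Parp1, Parp11, Parp12 and Dtx3l, and not for Parp9, Parp10 and Parp14. Parp11 had a window at each of its 2 starts. The interferon-stimulated response element was written as GAAANNGAAA, the gamma-activated site as TTCNNNGAA, the NF-kappaB site as GGGANTTNCC and the antioxidant response element as TGACNNNGC. These occurred in 3.45%, 8.33%, 1.17% and 12.4% of all 32544 windows of the same length. Among the members' 5 windows, only the one at the upstream start of Parp11 held a match. It had the interferon-stimulated response element on the other strand at chr6:127446796-127446805, 44 to 35 bases before the start, and a gamma-activated site at chr6:127446803-127446811, and these overlapped. The 60 bases before the start are shown for this window, with both matches in capitals, beside those of Parp12 (minus strand), the most abundant interferon-induced member, and of Parp1, the constitutive one, which held no match. They lie at chr6:127446780-127446839, chr6:39118350-39118409 and chr1:180568831-180568890.
Parp11: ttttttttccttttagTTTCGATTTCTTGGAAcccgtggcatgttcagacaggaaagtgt
Parp12: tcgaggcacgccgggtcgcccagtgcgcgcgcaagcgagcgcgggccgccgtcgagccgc
Parp1: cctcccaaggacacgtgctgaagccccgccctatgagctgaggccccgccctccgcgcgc
A match is a description of these letters, and binding of a factor was not measured.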

How the data were processed

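RNA-seq libraries of RAW 264.7 cells were grouped by the treatment in their labels. The authors deposited counts per gene and FPKM, made per the labels with HISAT2 2.0.5, StringTie 1.3.3b and featureCounts 1.5.0-p3; the builds named are GRCm38 and mm39, and the strand setting of counting is not given in the sources used here. Members and gene lists were chosen with earlier results of these data known. Deposited counts were fitted with edgeR 4.0.16 (R 4.3.3; filterByExpr, TMM, glmQLFit and glmQLFTest, 1 coefficient per condition, no covariate) over all 18 libraries, which kept 13691 genes. SE values come from log2 CPM (prior count 2) of the libraries compared. The authors' FPKM values served for levels. The step was tested on simulated data. Apart from the members and 10 genes given whatever their values, at most 4 genes per list and comparison are named, those with the largest absolute log2FC among called genes with a mean of at least 50 counts. Plec was added after its overlap with Parp10 was seen. Alternatives were DESeq2 1.42.0 (the study's tool), RLE factors or total library size, no filter or a mean of at least 50 counts, the conditions compared only, a replicate block, limma 3.58.1 on log2(FPKM + 1) or log2(FPKM + 0.1), other thresholds, and leaving out each replicate.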

Additional observations from a re-analysis of the deposited data

Results flagged for a closer look

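The effect of TBHQ on 3 members differed between the stimuli by the test of that difference. The log2FC of PIC + TBHQ against PIC less that of LPS + TBHQ against LPS was 0.28 for Dtx3l, 0.37 for Parp10 and 0.25 for Parp14. In each case both effects were reductions, and the one under LPS was the larger. The FDR stayed below 0.05 in every other fit for Parp10 only, and it reached 0.118 for Dtx3l and 0.111 for Parp14.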

How the results depend on the processing

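Of the log2FC of members in the alternatives, these changed sign. In PIC + TBHQ against control with total library size, Parp11 was at -0.15, Parp12 at -0.0084 and Dtx3l at -0.017, and without 1 library Parp11 ran from -0.054 to 0.083. In PIC against LPS with total library size, Parp10 was at -0.017. For the difference of the TBHQ effect between PIC and LPS, Parp1 ran from -0.0064 to 0.063 without 1 library. In LPS + TBHQ against TBHQ, a comparison added after seeing the data, Parp12 was at 0.0052 with no filter and ran from -0.036 to 0.011 without 1 library. Dtx3l there was at 0.010 with no filter, 0.0031 with a mean of at least 50 counts, 0.00033 with limma on log2(FPKM + 1), 0.00047 with limma on log2(FPKM + 0.1) and from -0.050 to 0.017 without 1 library. By an FDR below 0.01 with an absolute log2FC above 2, 0 members were called in each of the 12 comparisons. With total library size 3 were called in PIC + TBHQ against control, where 2364 of all 13691 genes were higher and 5515 lower. In PIC against LPS 3 were called with that scaling, beside 985 genes higher and 4373 lower. For the difference 5 were called with it, beside 235 genes higher and 74 lower. For the difference, 1 was called with limma on log2(FPKM + 1), 1 with limma on log2(FPKM + 0.1) and 1 at an FDR below 0.01, and 1 to 3 without 1 library. The counts of all genes called in these settings are not given here. With the replicate block, Parp12 was at 0.22 for the difference (FDR = 0.0417). Correlations between same-numbered replicates of different conditions ran from -0.0719 to 0.142 over 45 pairs (median 0.026, 2 above 0.1). Such correlations cannot settle whether same-numbered libraries were handled together. The cause of the changes between fits was not tested.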
